A study of Mus musculus with 4 samples.

Results

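Distal convoluted tubule cells, the short nephron segment that takes up salt through the Slc12a3 cotransporter, were followed in 4 single-cell RNA libraries of mouse kidney at 0, 1, 4 and 12 h after fibroblast growth factor 23 (FGF23). The cells were chosen by their measured values. A barcode was included if it held at least 300 genes, at most 50% mitochondrial UMIs (unique molecular identifiers, each 1 counted RNA molecule), at least 3 Slc12a3 UMIs and more Slc12a3 than S100g UMIs, at most 2 Slc12a1 UMIs and at most 10 Slc34a1 UMIs. The rule found 1552 of 52478 deposited barcodes, namely 387, 334, 439 and 392 cells in the libraries of 0, 1, 4 and 12 h. They made up 3.82%, 3.52%, 3.95% and 3.79% of the barcodes that passed the gene and mitochondrial limits in the same order of times. Because the limits name Slc12a3, S100g, Slc12a1 and Slc34a1, the levels of these 4 genes are given as description only.

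All mice were C57BL/6 (C57BL/6J in the protocols), 10 weeks old, and both sexes were used. The 3 treated groups received 1 intraperitoneal dose of 10 µg recombinant human FGF23 and were killed 1, 4 or 12 h later. The 0 h group is labelled as the baseline with a dose of 0 µg, but the name of its deposited matrix refers to saline at 1 h, so whether those mice were injected is not settled here. Each library pooled kidneys of male and female mice after enzymatic dissociation, red cell lysis and removal of dying cells, and was made with 10x Genomics 3' V3 chemistry. Each time is therefore 1 library, and a difference between times cannot be told apart from a difference between the pooled animals, the dissociations or the libraries. No test between times exists. Values below are CPM, the UMIs of a gene summed over the distal convoluted tubule cells of a library and scaled to 1000000 UMIs in all, ratios are log2 ratios to the 0 h library, and each 95% interval covers counting error only. The 3 comparisons share the 0 h library.

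The distal convoluted tubule follows the thick ascending limb. Slc12a3, the thiazide-sensitive sodium chloride cotransporter, is its entry step for salt, and the kinases Wnk1, Wnk4 and Stk39 set its activity. The Klhl3 and Cul3 ubiquitin ligase removes the WNK kinases. The segment also carries the last regulated step of magnesium uptake through the Trpm6 channel, and it holds Pvalb, a calcium-binding protein, in its early portion. FGF23 is a bone hormone that lowers phosphate reabsorption and active vitamin D in the proximal tubule, and it binds FGF receptors together with Klotho (Kl), which is most abundant in the distal tubule. Receptor activation runs through Frs2 to the ERK kinases, whose early target genes include Egr1 and whose feedback genes include the Dusp and Spry families.

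Slc12a3, by which the cells were chosen, cannot check the label, so Pvalb and Trpm6 were used for that. Median Slc12a3 counts were 120, 142.5, 126 and 116.5 UMIs per cell at 0, 1, 4 and 12 h. The lower quartiles were 85.5, 96, 76.5 and 43.75 UMIs, and 14, 10, 13 and 31 cells held under 10. The 12 h library thus held the most cells low in Slc12a3. The edge of the rule was thinly filled. Among barcodes that met the other limits, 6, 10, 6 and 5 held 2 Slc12a3 UMIs and were left out, and 3, 2, 0 and 1 held 3 and were included. Pvalb was found in 293, 276, 342 and 282 cells, which is 75.7%, 82.6%, 77.9% and 71.9% of the cells. Trpm6 was found in 59.7%, 64.1%, 60.6% and 41.6% of the cells and in at most 0.735% of endothelial cells, a type that should lack it and whose median depth was 2412 to 2570 UMIs.

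Depth was similar across the 4 libraries, and the mitochondrial share was high in all of them. Median UMIs per distal convoluted tubule cell were 10238, 10939.5, 11083 and 10299, over 3860082, 3714349, 5023455 and 4200725 UMIs in all. The median mitochondrial share was 35.4%, 36.2%, 29.5% and 33.2%. A further 135, 129, 98 and 138 barcodes met the marker limits but exceeded the mitochondrial limit and were left out. By sex-linked transcripts, 68.6%, 61.4%, 51.0% and 48.1% of the cells that could be called were female. No distal convoluted tubule barcode was shared between libraries.

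Markers of other cell types were present at levels that differed between libraries. The summed level of 6 proximal tubule markers was 3851, 706, 1727 and 1104 CPM, that of 4 thick ascending limb markers 3153, 3171, 3409 and 2052 CPM, and that of 4 connecting tubule markers 1376, 1368, 1338 and 873 CPM. The proximal sum was mostly Kap, with 3568, 550, 1539 and 852 CPM. The thick ascending limb sum was nearly all Umod, with 3147, 3167, 3401 and 2045 CPM in 362, 323, 413 and 361 of the cells. The other 3 markers of that limb, Slc12a1 (which the rule limits), Cldn16 and Cldn19, were each at or below 4.76 CPM, and Cldn16 had no UMI at 4 and 12 h. Markers of intercalated cells summed to 101, 2.42, 17.9 and 31.4 CPM and those of principal cells to 42.7, 7.27, 174 and 12.4 CPM. Endothelial markers summed to 35.5, 1.62, 52.4 and 108 CPM, macrophage markers to 59.8, 3.23, 10.2 and 221 CPM and neutrophil markers to 87.6, 102, 2.79 and 1.19 CPM. Red cell markers summed to 334, 0, 5.18 and 240.4 CPM, B cell markers to 1.30, 0.269, 0.796 and 18.1 CPM, and T and NK cell markers to 1.81, 5.38, 0.199 and 6.19 CPM. Stromal markers were at or below 2.38 CPM and podocyte markers at or below 0.269 CPM in every library. Barcodes counted as carrying markers of another cell type numbered 25, 9, 19 and 39. They held over 3 Slc34a1 UMIs, or at least 3 summed marker UMIs of a principal, intercalated, endothelial, stromal, podocyte or immune type. Kap, Umod, connecting tubule and red cell genes did not enter that choice. Each count of genes below was repeated without these barcodes.

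At 1 h the largest ratio belonged to Hbegf, followed by Nab2, Egr1, Bhlhe40 and the cytokine receptor Tnfrsf12a, which is described with the 4 h values. Hbegf, the heparin-binding ligand of the EGF receptor, had 6.48, 421, 370 and 25 CPM at 0, 1, 4 and 12 h, from 25, 1562, 1860 and 105 UMIs. The 0 h library alone was low, and 12 h lay between it and the other 2. At 1 h its log2 ratio was 6.02 (95% interval 5.45 to 6.65). The ratios of 4 and 12 h were 5.84 (5.27 to 6.47) and 1.95 (1.31 to 2.64). A Hbegf UMI was found in 23 of 387 cells at 0 h, in 227 of 334 at 1 h, in 315 of 439 at 4 h and in 62 of 392 at 12 h. With each cell thinned to 2000 UMIs, the shares were 1.32%, 37.7%, 39.7% and 4.26%. Endothelial cells, which also express Hbegf, held a UMI in 13.6%, 15.7%, 16.1% and 13.9% of cells after the same thinning, from median depths of 2412 to 2570 UMIs. Hbegf transcripts were thus spread over a large share of the cells at 1 and 4 h, not held by a few.

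Egr1, an early zinc finger factor of ERK signalling, had 41.4, 603, 196 and 21.2 CPM at 0, 1, 4 and 12 h. It was highest at 1 h, with a log2 ratio of 3.86 (3.63 to 4.10), and at 12 h it was below its 0 h level. Nab2, a corepressor that binds Egr factors (chromosome 10, 127660918 to 127668568, minus strand, GRCm38), had 10.9, 177, 105 and 29.8 CPM. Bhlhe40, a basic helix-loop-helix repressor (chromosome 6, 108660629 to 108666925, plus strand), had 24.9, 270, 86.8 and 21.9 CPM. Both stood highest at 1 h, with log2 ratios of 4.03 and 3.44. Id2, an inhibitor of basic helix-loop-helix factors (chromosome 12, 25093799 to 25097140, minus strand), had 106, 839, 1067 and 401 CPM and stayed high at all 3 times. Ier5l, an immediate early response gene, had 11.9, 95.04, 40.4 and 11.9 CPM and was back at its 0 h level at 12 h.

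The orphan nuclear receptors had a briefer course. Nr4a1 (chromosome 15, 101254269 to 101274795, plus strand) had 30.3, 190, 1.99 and 1.67 CPM, with log2 ratios of 2.65 at 1 h, -3.93 at 4 h and -4.19 at 12 h. Nr4a3 had 3.89, 33.4, 0.597 and 0 CPM. Atf3, a stress-responsive leucine zipper factor, had 4.66, 39.6, 2.99 and 1.19 CPM. All 3 were high in the 1 h library alone, and Nr4a1 stood below its 0 h level at 4 and 12 h. Atf3 and Nr4a3 were at or below 4.66 CPM in the libraries of 0, 4 and 12 h. Their order among those libraries rests on few UMIs.

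**Figure D1:**
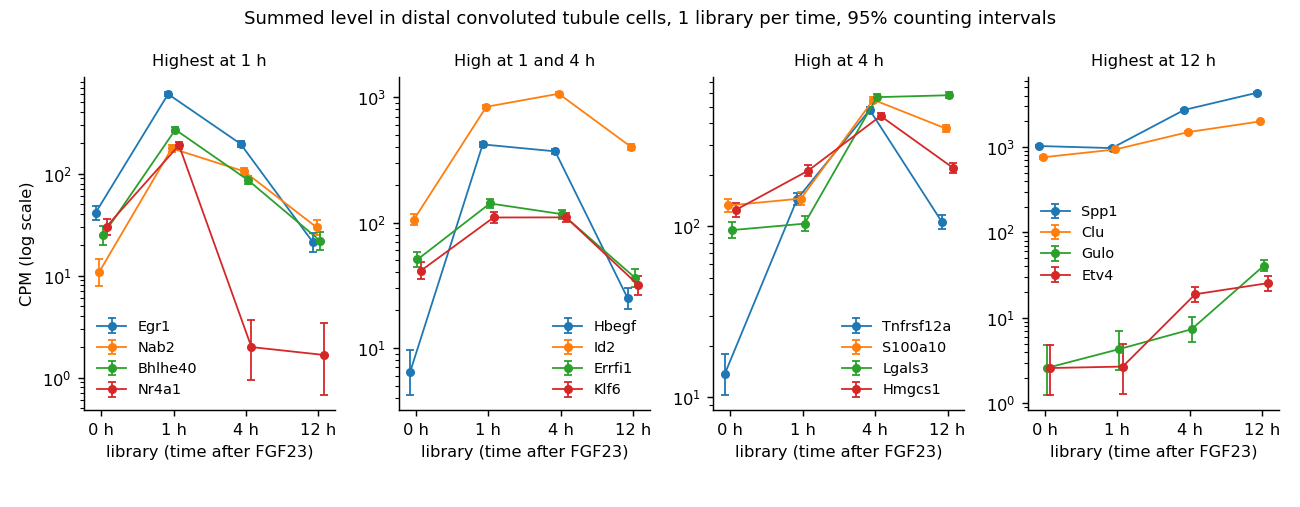
Summed level in distal convoluted tubule cells (CPM, log axis) at 0, 1, 4 and 12 h, with 1 library per time and bars for the 95% counting interval; lines join the libraries only to guide the eye. Egr1, Nab2, Bhlhe40 and Nr4a1 are highest at 1 h, Hbegf, Id2, Errfi1 and Klf6 are high at 1 and 4 h, Tnfrsf12a, S100a10, Lgals3 and Hmgcs1 are high at 4 h, and Spp1, Clu, Gulo and Etv4 are highest at 12 h.

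The 3 genes of the short course shared a feature in front of their start sites, and the sequences are shown because they held it. A search of the 250 bases before the RefSeq start (GRCm38.p6) on both strands found TGACG, the half-site of the cAMP response element, in Atf3, Nr4a1 and Nr4a3. Atf3 had 1 match, starting 7 bases before the start, and Nr4a1 and Nr4a3 had 4 each. The capitals below mark the matches, and CGTCA is the same motif read on the other strand.
Atf3, chr1:191183334-191183380, minus strand: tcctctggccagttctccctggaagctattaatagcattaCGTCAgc
Nr4a1, chr15:101266596-101266845, plus strand: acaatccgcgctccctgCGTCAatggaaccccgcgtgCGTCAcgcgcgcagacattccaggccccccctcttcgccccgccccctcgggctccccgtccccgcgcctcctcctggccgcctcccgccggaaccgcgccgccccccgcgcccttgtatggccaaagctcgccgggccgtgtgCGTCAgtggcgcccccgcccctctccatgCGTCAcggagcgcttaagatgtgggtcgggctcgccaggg
Nr4a3, chr4:48045055-48045202, plus strand: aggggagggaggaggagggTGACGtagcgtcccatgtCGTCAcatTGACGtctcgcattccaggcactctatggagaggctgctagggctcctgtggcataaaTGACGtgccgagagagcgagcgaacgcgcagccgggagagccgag
The half-site was present in 17.8% of all 32851 promoters of that length, so a match is common and describes letters only. Among all genes 19.8% held it. Of the genes with a promoter in the table, 11 of 18 immediate early genes held it, as did 6 of 12 EGF receptor, 5 of 13 cholesterol, 5 of 16 FoxO-type, 5 of 16 clock, 6 of 20 actin, 5 of 18 ERK feedback and 3 of 24 injury genes. Of the genes named as higher by the size rule, 3 of 7 held it at 1 h, 1 of 8 at 4 h and 0 of 5 at 12 h. The immediate early genes that held it included Fos and Fosb, which were near their 0 h level at 1 h and so lacked the short course. The full site TGACGTCA, which contains the half-site, was present in 1.55% of promoters.

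Among all genes that reached 50 UMIs in the 2 libraries together, 92 of 8577 were 2-fold or more higher at 1 h (1.07%) and 157 were 2-fold or more lower (1.83%). The median log2 ratio of all tested genes was -0.04. For 84 of the 157 (53.5%), at least 50% of the UMIs came from 5 cells, against 7 of the 92 higher genes. The remaining 73 lower genes were spread wider. All 10 genes named as lower by the size rule were of the first kind, namely Atp6v1g3, Cd74, Aadat, Tmigd1, Kap, Cyp7b1, Mep1a, Cyp2a4, Ugt3a1 and Napsa. Atp6v1g3, Cd74 and Kap were among the markers of other cell types above. The proximal tubule marker sum was 3851 CPM at 0 h and 706 CPM at 1 h. Without the 5 cells richest in each gene in each library, 9 of the 10, all except Atp6v1g3, were still 2-fold lower. That step leaves RNA spread over many barcodes in place, and the part of RNA from other cell types was not tested. Atp6v1g3, a proton pump subunit of intercalated cells, had 280 UMIs at 0 h and 7 at 1 h, and 154 of the 280 were in 1 cell. Kap, an androgen-regulated proximal tubule gene, had 3568, 550, 1539 and 852 CPM, with up to 3484 UMIs in 1 cell. Without the barcodes that carried markers of other cell types, 92 genes were higher and 99 lower, and without the 5 richest cells per gene 88 were lower.

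Of 18 immediate early genes tested, 10 were 2-fold or more higher at 1 h and 0 were lower, with a list median of 1.07. Besides those above, Klf6, a zinc finger factor, had 41.4, 110, 110 and 31.7 CPM. Junb, an AP-1 subunit, had 69.2, 150, 143 and 31.2 CPM. Fos and Jun, the classical AP-1 pair, were near their 0 h level at 1 h, with log2 ratios of 0.03 and -0.16. Of the ERK feedback list, 4 of 10 tested genes were higher at 1 h and 0 were lower (median 0.44). Dusp6, the phosphatase of ERK, had 34.5, 98.5, 184 and 80.7 CPM, and Spry2, an inhibitor of receptor tyrosine kinase signalling, had 10.1, 26.4, 36.6 and 20.5 CPM. Both stood highest at 4 h, after the peak of Egr1. The glucocorticoid list held 8 of 14 genes that were higher and 1 that was lower at 1 h (median 1.05), among them the metallothionein Mt1 with 1161, 2385, 3501 and 1922 CPM and the glutamine synthetase Glul with 57.8, 151, 150 and 65.0 CPM. The glucocorticoid median was below 2-fold in cells called male (0.79) and without barcodes that carried other markers (0.97, with 6 of 14 higher). It was above 2-fold in cells called female (1.07) and without the 5 cells richest in each gene (1.04).

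The size of the Egr1 ratio depended on the mitochondrial share of the cells. In cells with at most 25% mitochondrial UMIs (95 at 0 h and 62 at 1 h), the Egr1 log2 ratio was 2.39 from a 0 h level of 146 CPM. In cells above 25%, it was 5.02 from a 0 h level of 17.8 CPM. The Hbegf ratio was 6.82 and 5.82 in the same sets, so its size did not follow that of Egr1. By sex-linked transcripts, the Hbegf ratio at 1 h was 6.45 in cells called male and 6.35 in cells called female. By Pvalb, it was 6.26 in cells with a Pvalb UMI and 5.58 in cells without.

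At 4 h Hbegf was still high, and the gene lists of ERK feedback, injury and cholesterol synthesis had medians above 2-fold. Tnfrsf12a, the receptor of the cytokine TWEAK (chromosome 17, 23675445 to 23677468, minus strand), had 13.7, 145, 479 and 105 CPM at 0, 1, 4 and 12 h. It was the highest at 4 h and remained above the 0 h level at 12 h, with log2 ratios of 3.40, 5.13 (4.73 to 5.55) and 2.94. After thinning, a Tnfrsf12a UMI was found in 1.06%, 23.9%, 56.4% and 17.6% of cells. Lgals3, the lectin galectin-3 (chromosome 14, 47367751 to 47386160, plus strand), had 95.1, 104, 569 and 584 CPM and was near its 0 h level at 1 h. Tnfrsf12a thus differed from the 0 h library by 1 h, while Lgals3 did so only in the libraries of 4 and 12 h.

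At 4 h, 330 of 8957 genes were 2-fold or more higher (3.68%) and 294 were lower (3.28%), with a median of -0.02 over all tested genes. Myof, a membrane repair protein of the ferlin family, had 5.70, 12.4, 89.0 and 30.7 CPM. Gper1, a membrane oestrogen receptor, had 4.92, 7.54, 59.1 and 43.1 CPM, and Cldn4, a tight junction claudin, had 2.33, 4.85, 25.7 and 18.6 CPM. The 3 genes were low at 0 and 1 h and above that at 4 and 12 h. Sprr1a, a cornified envelope protein induced in injured epithelia, had 0, 2, 373 and 51 UMIs, so it was at least 95.5-fold higher at 4 h against a floor of 3 counts in the 0 h library. It was the exception among the genes named as higher at that time, because 63.0% of its UMIs at 4 h came from 5 of the 34 cells that held any. Among the genes named as lower, Fam107a, an actin-binding stress protein, had 74.6, 64.9, 16.5 and 39.3 CPM, and Coq8a, a kinase of ubiquinone synthesis, had 60.6, 47.7, 14.5 and 25.2 CPM. For 7 of the 10 named lower genes, at least 50% of the UMIs came from 5 cells. These were Atp6v1g3, Cyp7b1, Slc7a13, Acsm3, Cd74, Tmigd1 and Cyp2a4, of which Atp6v1g3 and Cd74 were among the markers of other cell types. Without the 5 cells richest in each gene in each library, 9 of the 10, all except Atp6v1g3, were still 2-fold lower. The part of RNA from other cell types in these ratios was not tested.

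The injury list had 12 of 17 tested genes higher and 0 lower at 4 h, and 11 of 17 higher and 0 lower at 12 h, with medians of 1.46 and 1.40. At 1 h only 2 of 14 were higher, Tnfrsf12a and the cell cycle inhibitor Cdkn1a. Krt18, a keratin of simple epithelia, had 17.6, 19.9, 100 and 53.3 CPM, and its partner Krt8 had 62.2, 70.3, 171 and 105 CPM. S100a10, which binds annexin A2, had 132, 145, 550 and 373 CPM, and Anxa2 itself had 4.40, 2.96, 32.6 and 18.8 CPM. Gdf15, a stress-induced cytokine, had 3.89, 3.77, 23.1 and 9.76 CPM. These 5 shared the same order, near the 0 h level at 1 h and highest at 4 h. Of the actin list, 10 of 19 genes were higher at 4 h and 0 were lower (median 1.05). That median was below 2-fold in cells called male (0.54), in cells called female (0.98), without barcodes that carried other markers (0.98) and on CPM over non-mitochondrial UMIs (0.95, with 7 of 19 higher). The list included Tagln2, an actin-bundling protein, with 19.7, 24.2, 86.0 and 59.3 CPM, and the cytoplasmic actin Actg1 with 1077, 1751, 2255 and 1076 CPM. Acta2, a smooth muscle actin on that list, had 1, 3, 85 and 0 UMIs. Of the TNF and NF-kB list, 4 of 16 were higher and 1 was lower at 4 h (median 0.48), and the NF-kB subunit Nfkb2 had 5.44, 7.27, 20.5 and 25.5 CPM.

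Genes of cholesterol synthesis were higher together at 4 h. Of the 20 tested, 15 were 2-fold or more higher and 0 were lower, with a median of 1.35, against 2 of 19 at 1 h (median 0.52) and 3 of 20 at 12 h (median 0.69). Hmgcs1, the synthase at the head of the pathway (chromosome 13, 119690379 to 119708260, plus strand), had 125, 212, 442 and 220 CPM and log2 ratios of 0.76, 1.83 (1.68 to 1.97) and 0.82. Sqle, the squalene epoxidase, had 39.9, 60.3, 154 and 79.0 CPM. Insig1, which holds the sterol-regulated factors in the endoplasmic reticulum when sterols are plentiful, had 16.3, 38.2, 63.9 and 18.6 CPM. All 3 were highest at 4 h and already above their 0 h level at 1 h. The 5 genes short of 2-fold at 4 h, Mvk, Fdps, Nsdhl, Dhcr7 and Stard4, had log2 ratios between 0.69 and 0.91.

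The promoter of Hmgcs1 is shown because it held the sterol regulatory element searched for, TCACNCCAC. The match, in capitals, starts 137 bases before the RefSeq start.
Hmgcs1, chr13:119690174-119690262, plus strand: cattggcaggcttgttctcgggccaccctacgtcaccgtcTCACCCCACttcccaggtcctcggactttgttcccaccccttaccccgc
This motif was present in 1.05% of promoters and 1.22% of genes, and in 1 of the 13 cholesterol genes with a promoter in the table. The other 6 motifs searched were GCGTGGGCG for Egr factors (0.536% of promoters), CCGGAAGT for Ets factors (2.88%), TGANTCA for AP-1 (6.75%), TGTTTAC for FoxO factors (3.17%), CACGTG, the E-box (6.02%), and the CArG box (1.47%), which was present in 5 of 20 actin genes.

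**Figure D2:**
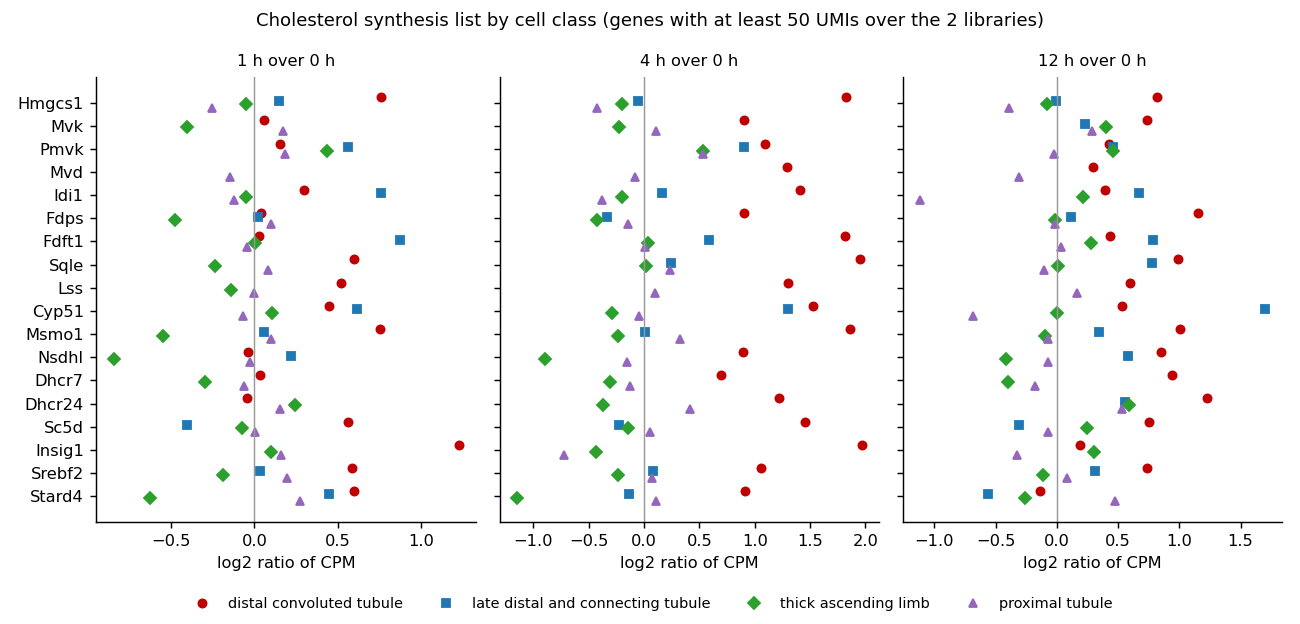
Log2 ratio of CPM to the 0 h library for 18 genes of the cholesterol synthesis list (rows) in 4 cell classes (symbols), at 1, 4 and 12 h (panels), for genes that reached 50 UMIs in both libraries together. At 4 h the distal convoluted tubule ratios run from 0.69 to 1.97. The list medians of the other 3 classes, each over the genes tested in that class, lie between -0.24 and 0.11.

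The 4 h pattern was set beside that of the neighbouring classes, chosen by the same kind of limits, with 925 late distal and connecting tubule cells, 1652 thick ascending limb cells and 23055 proximal tubule cells. The cholesterol list had a median of 1.35 in distal convoluted tubule cells, 0.11 in late distal and connecting tubule cells (1 of 12 genes higher), -0.24 in thick ascending limb cells (0 of 18) and 0.06 in proximal tubule cells (0 of 20). The injury list had medians of 1.46, 0.13, 0.32 and 0.21 in the same order, over 17, 16, 17 and 26 tested genes. The ERK feedback list had medians of 1.42, 0.56, -0.38 and 0.62, over 16, 12, 10 and 19 tested genes. Hmgcs1 itself had log2 ratios of 1.83, -0.05, -0.20 and -0.42, and Lgals3 had 2.58, 0.06, 0.28 and 0.18. Tnfrsf12a was higher at 4 h in all 4 classes, with log2 ratios of 5.13, 2.78, 1.33 and 2.80. At 4 h the medians of the distal convoluted tubule were the highest of the 4 in each of these lists. The medians cover different genes, because a gene was tested only in classes and at times where it had enough UMIs. A gene scarce at 0 h could enter only through a high later level. The classes and times were not compared over a common set of genes, so the order of the medians is description only. At 1 h the ERK feedback medians were 0.44, 0.35, -0.09 and 1.09 in the same order, highest in proximal tubule cells. There 10 of 19 genes were higher at 1 h, against 4 of 10 in distal convoluted tubule cells. With 1 library per time the difference between classes was not tested.

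Hbegf showed the contrast between classes at both early times. In proximal tubule cells it had 28.1, 149, 27.9 and 14.5 CPM, so it was high at 1 h and back at its 0 h level at 4 h. Late distal and connecting tubule cells had 3.05, 12.0, 14.1 and 3.88 CPM, and thick ascending limb cells 15.7, 23.2, 18.2 and 11.9 CPM. Distal convoluted tubule cells were the only 1 of these 4 classes above 300 CPM at any time. Of the 92 genes 2-fold higher in distal convoluted tubule cells at 1 h, 51 could be tested in late distal and connecting tubule cells, and 9 were 2-fold higher there, where 92 of 6938 genes were. In thick ascending limb cells 74 could be tested and 2 were higher, where 39 of 8678 genes were. In proximal tubule cells 85 could be tested and 18 were higher, where 57 of 13003 genes were. At 4 h the counts were 44 of 223, 22 of 249 and 37 of 307 tested genes in the same order of classes. Among all genes tested there, 203 of 7847, 91 of 8663 and 263 of 13100 were 2-fold higher. At 12 h the counts were 28 of 153, 16 of 168 and 18 of 200. Among all genes tested in these classes, 231 of 7457, 56 of 8758 and 251 of 13010 were 2-fold higher at 12 h.

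**Figure D3:**
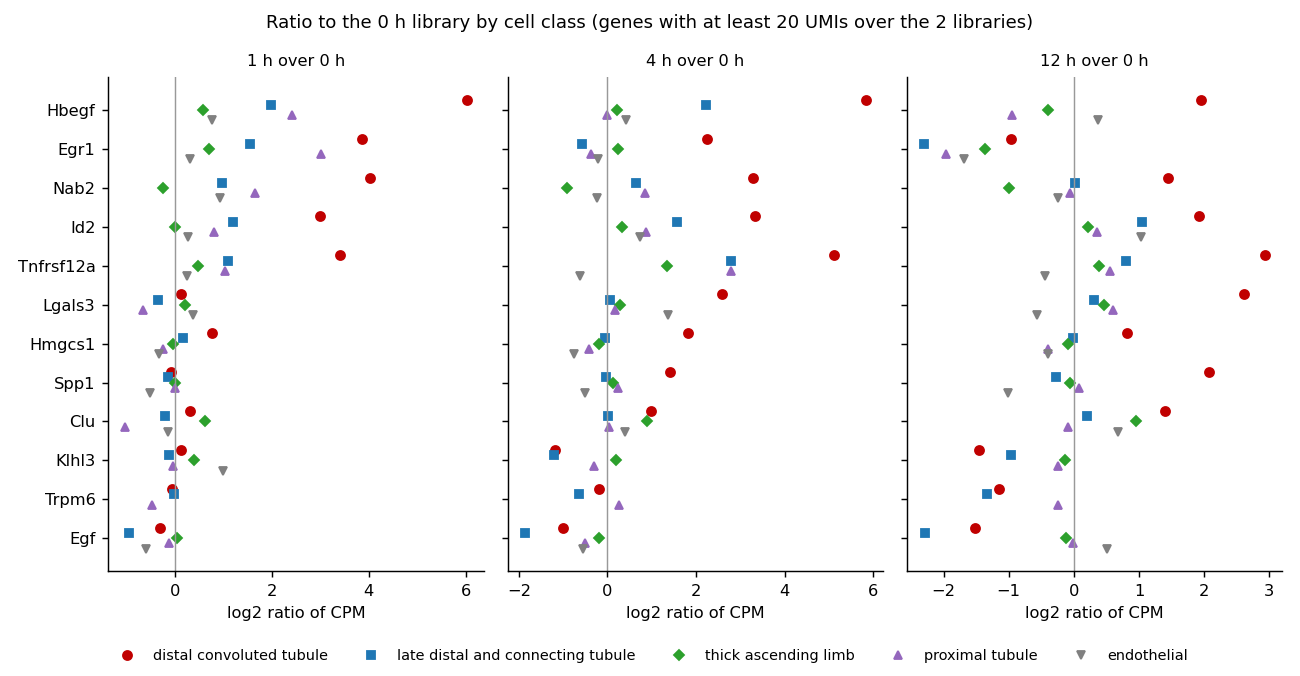
Log2 ratio of CPM to the 0 h library for 12 genes (rows) in 5 cell classes (symbols) at 1, 4 and 12 h (panels), shown where the 2 libraries together hold at least 20 UMIs. Red circles, the distal convoluted tubule, stand furthest to the right for Hbegf, Tnfrsf12a and Id2 at 1 and 4 h and for Spp1 and Lgals3 at 12 h, whereas Trpm6 and Egf lie at or below 0 at 12 h there and in late distal and connecting tubule cells.

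Among the genes highest at 12 h were 2 members of the injury list, Spp1 and Clu, and 3 genes named by the size rule, Gulo, Etv4 and Dusp9. Spp1, the secreted phosphoprotein osteopontin (chromosome 5, 104435118 to 104441050, plus strand), had 1026, 971, 2718 and 4305 CPM at 0, 1, 4 and 12 h, with log2 ratios of -0.08, 1.40 and 2.07. The 5 cells richest in Spp1 held 18.2% of its UMIs at 12 h. Clu, the chaperone clusterin, had 758, 936, 1492 and 1995 CPM. Gulo, the last enzyme of vitamin C synthesis, had 2.59, 4.31, 7.37 and 40.9 CPM. Etv4, an Ets factor downstream of FGF receptors, had 2.59, 2.69, 18.9 and 25.5 CPM, and Dusp9, a phosphatase of ERK-type kinases, had 3.63, 5.38, 9.36 and 33.8 CPM. Unlike the genes of the first hour, these 5 were within 2-fold of the 0 h level at 1 h and highest at 12 h. The Spp1 ratio at 12 h was 1.81 in cells with a Pvalb UMI and 2.60 in cells without, from 982 to 3439 CPM and from 1201 to 7278 CPM.

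In all, 226 of 8907 genes were 2-fold or more higher at 12 h (2.54%) and 206 were lower (2.31%), around a median of 0.01 for all tested genes. Without the barcodes that carried markers of other cell types, 179 were higher and 214 lower. Rassf10, a Ras association domain protein, had 1.55, 2.15, 10.2 and 25.5 CPM, and the actin-capping protein Capg had 5.96, 2.42, 18.1 and 39.3 CPM. AY036118, a noncoding RNA, had 9.59, 7.81, 35.0 and 82.8 CPM. Igfbp3, a binding protein of insulin-like growth factors, had 2.07, 0.538, 11.3 and 26.7 CPM, but 70.5% of its UMIs at 12 h came from 5 of 14 cells. The neutrophil genes S100a8 and S100a9 were among the genes named as lower, and they make up most of the neutrophil marker sum given above.

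The AP-1 genes were lower at 12 h than at 0 h. Fos had 87.0, 89.1, 42.8 and 9.05 CPM, and its paralogue Fosb had 22.3, 19.7, 7.96 and 4.52 CPM. Jun had 210, 188, 123 and 57.4 CPM. Cyr61, a matricellular protein of the CCN family, had 50.3, 48.7, 59.3 and 9.52 CPM. Of 14 immediate early genes tested at 12 h, 7 were 2-fold or more lower and 0 higher (median -1.06). The same list had medians of -0.57 in late distal and connecting tubule cells, -1.04 in thick ascending limb cells and -1.07 in proximal tubule cells. In endothelial cells the median was -1.21, with 13 of 18 genes lower. The lower level at 12 h was thus found in the other classes too. In contrast, 8 of 14 ERK feedback genes were higher at 12 h and 1 was lower (median 1.12), among them Etv1, a further Ets factor, with 2.85, 7.81, 15.1 and 15.7 CPM. The lower one was Dusp1, a phosphatase of several MAP kinases, with 46.4, 39.6, 19.9 and 12.1 CPM. The ERK feedback median at 12 h was 0.82 (6 of 12 genes higher) without the 5 cells richest in each gene. Without barcodes that carried other markers it was 1.05 (7 of 13 higher).

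**Figure D4:**
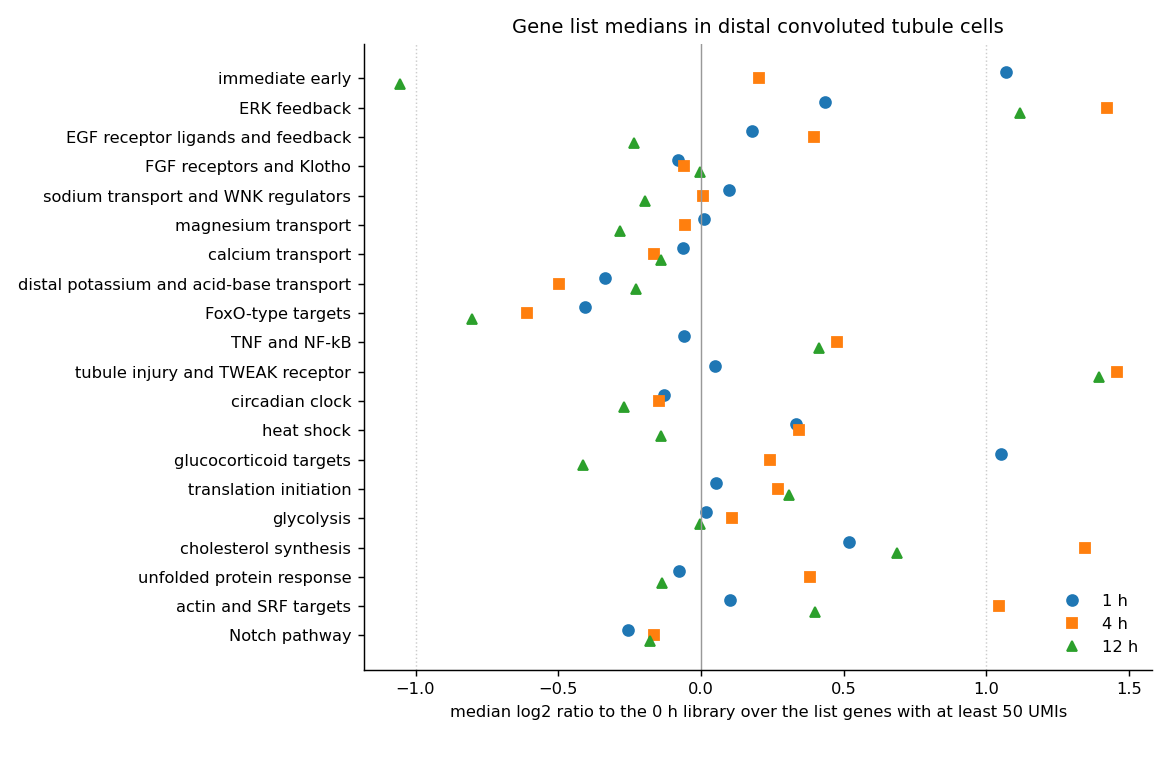
Median log2 ratio to the 0 h library over the genes of each list (rows) with at least 50 UMIs in distal convoluted tubule cells, at 1 h (circles), 4 h (squares) and 12 h (triangles); dotted lines mark 2-fold. Immediate early genes and glucocorticoid targets pass 2-fold higher at 1 h by a narrow margin. ERK feedback, injury, cholesterol and, by a narrow margin, actin genes do so at 4 h. At 12 h ERK feedback (1.12) and injury (1.40) genes are beyond 2-fold higher, and immediate early genes lie beyond 2-fold lower. The genes of a list that could be tested can differ between times.

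Of 26 salt transport genes tested, 1 was higher and 1 lower at 1 h, 0 higher and 4 lower at 4 h, and 0 higher and 2 lower at 12 h, with medians of 0.10, 0.01 and -0.20. Over all genes, 1.07% were higher and 1.83% lower at 1 h, 3.68% and 3.28% at 4 h, and 2.54% and 2.31% at 12 h. Slc12a3 (chromosome 8, 94329201 to 94366214, plus strand), by which the cells were chosen, had 11720, 12319, 10690 and 10299 CPM. The kinase Wnk1 had 2971, 3310, 2982 and 2315 CPM and Wnk4 had 368, 429, 470 and 362 CPM. Klhl3, the adaptor that brings WNK kinases to the Cul3 ligase (chromosome 13, 58000228 to 58113592, minus strand), had 519, 566, 230 and 188 CPM. Its log2 ratio was 0.13 at 1 h. At 4 h it was -1.18 (-1.28 to -1.07), and at 12 h it was -1.46 (-1.58 to -1.34). Klhl3 was thus the gene of this pathway that was lower at both late times, while Cul3 had 96.6, 113, 121 and 105 CPM. At 4 h the other lower genes were Emx1, a homeobox factor, with 254, 313, 95.8 and 174 CPM, Bsnd, the chloride channel subunit barttin, with 98.4, 75.4, 37.0 and 62.1 CPM, and Nr3c2, the mineralocorticoid receptor, with 21.8, 20.5, 10.7 and 16.2 CPM. Sgk1, a kinase downstream of that receptor, had 21.0, 49.3, 21.1 and 10.95 CPM, and its ratio at 12 h went from -0.94 to -3.22 without the barcodes that carried markers of other cell types. In late distal and connecting tubule cells Klhl3 had a log2 ratio of -1.20 at 4 h.

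Magnesium genes differed mainly at 12 h, when 3 of 14 were lower and 0 higher (median -0.28). Over all genes 2.31% were lower and 2.54% higher at that time. Trpm6 (chromosome 19, 18749983 to 18892511, plus strand) had 144, 137, 126 and 65.0 CPM, with log2 ratios of -0.07, -0.19 and -1.14 (-1.36 to -0.93). At equal depth, a Trpm6 UMI was found in 23.3%, 23.0%, 23.3% and 10.6% of cells. The 12 h library alone was low. Its ratio there was -1.24 in cells called male and -1.23 in cells called female. Trpm7, the related ubiquitous channel kinase, had 504, 538, 371 and 322 CPM, and Cnnm2, a basolateral magnesium transport protein, had 92.0, 114, 67.9 and 65.2 CPM. Egf, the magnesium-regulating growth factor made in this segment and the thick ascending limb (chromosome 3, 129677565 to 129755316, minus strand), had 2235, 1786, 1118 and 777 CPM. It was lower at each later time, with log2 ratios of -0.32, -0.9995 and -1.52. At 12 h Egf had a log2 ratio of -2.28 in late distal and connecting tubule cells and -0.13 in thick ascending limb cells, and Trpm6 had -1.34 in the former. The 12 h library held the most distal convoluted tubule cells low in Slc12a3, and their part in the Trpm6 and Egf ratios was not tested.

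Of 10 calcium genes, 0 were 2-fold higher or lower at 1 and 4 h, and 2 were lower at 12 h. Over all genes 2.31% were lower and 2.54% higher at 12 h. Calb1, the calcium buffer calbindin, had 903, 1023, 810 and 363 CPM, and Slc8a1, the sodium-calcium exchanger, had 17.6, 14.5, 20.7 and 8.09 CPM. The connecting tubule marker sum, which includes both genes, was also lowest at 12 h, at 873 CPM. Its other markers were not lowest then. S100g, which the rule limits, had 455, 330, 506 and 501 CPM, and Trpv5 had 0.518, 0.538, 1.39 and 0.952 CPM. The part of connecting tubule cells, or of cells low in Slc12a3, in these ratios was not tested. Pvalb (chromosome 15, 78191114 to 78206400, minus strand) had 709, 661, 629 and 488 CPM, and Vdr, the vitamin D receptor, had 170, 241, 259 and 225 CPM. Of the potassium and acid-base list, Slc4a4, a sodium bicarbonate cotransporter, had 25.1, 15.9, 26.9 and 64.8 CPM and was the only 1 of 13 that was higher at 12 h. The list's largest other ratios belonged to genes of intercalated and principal cells such as Slc26a4 and Aqp2, which had 66 and 45 UMIs at 0 h.

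**Figure D5:**
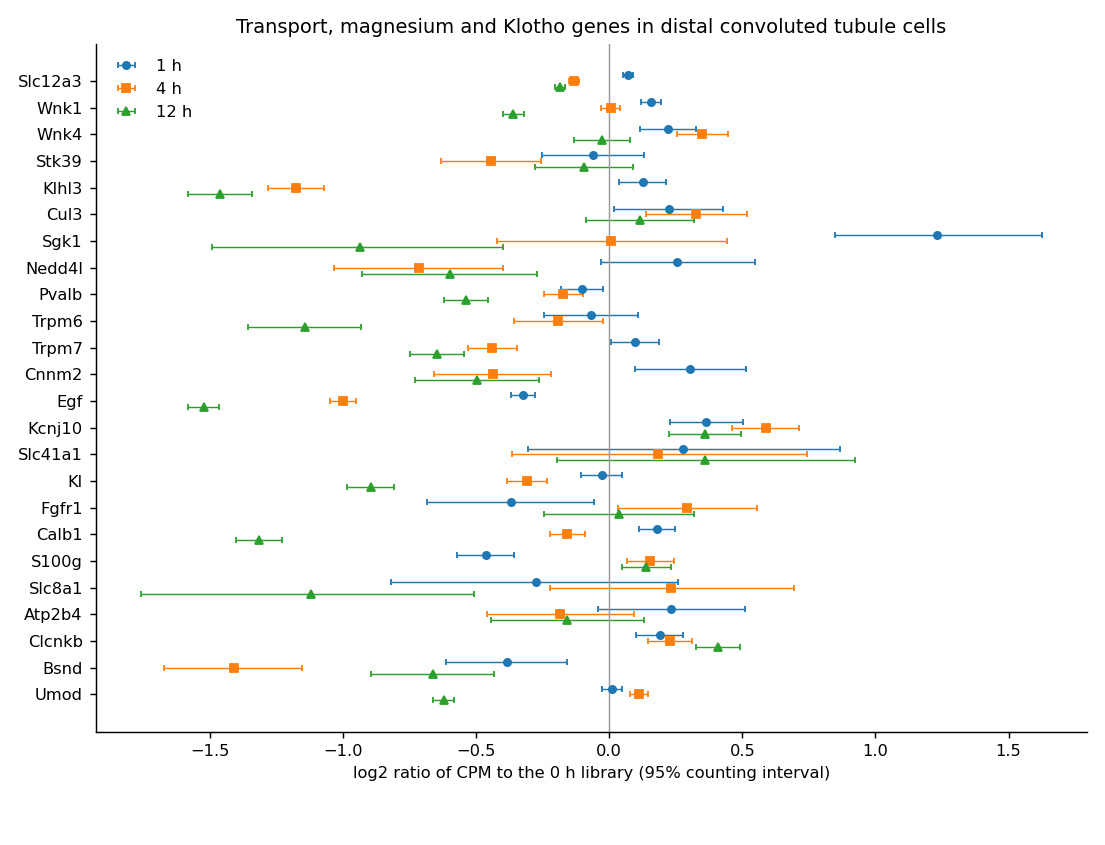
Log2 ratio of CPM to the 0 h library, with 95% counting intervals, for 24 genes of salt, magnesium and calcium transport and Klotho in distal convoluted tubule cells at 1 h (circles), 4 h (squares) and 12 h (triangles). Klhl3 is at -1.18 and -1.46 at 4 and 12 h, Egf at -0.9995 and -1.52, and Trpm6 and Calb1 are below -1 at 12 h only.

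Of 10 tested genes of the FGF receptor and Klotho list, 0 were 2-fold higher or lower at any time, with medians of -0.08, -0.06 and -0.00. Since at most 3.68% of all genes passed 2-fold in either direction at any time, 0 of 10 does not set the list apart. Kl (chromosome 5, 150952607 to 150993817, plus strand) had 734, 719, 592 and 394 CPM, with a log2 ratio of -0.90 (-0.99 to -0.81) at 12 h. At 12 h the Kl ratio was -0.86 in late distal and connecting tubule, -0.74 in proximal tubule and -0.13 in thick ascending limb cells. Fgfr1, the main receptor partner of Klotho, had 51.8, 40.1, 63.5 and 53.1 CPM. Fgf9, a secreted FGF, had 85.2, 78.3, 131 and 159 CPM. Among the EGF receptor genes, the feedback inhibitor Errfi1 had 50.8, 142, 117 and 36.4 CPM, and Erbb3 had 30.3, 12.9, 20.1 and 18.3 CPM. Of that list, Hbegf and Errfi1 were the 2 of 8 that were higher at 1 h and the 2 of 9 at 4 h.

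FoxO-type targets, which growth factor signalling through Akt represses, had medians below 0 at all 3 times. Of 16 tested, 3 were higher and 3 lower at 1 h, 1 higher and 4 lower at 4 h and 1 higher and 6 lower at 12 h, with medians of -0.41, -0.61 and -0.80. Over all genes, 1.07%, 3.68% and 2.54% were higher and 1.83%, 3.28% and 2.31% lower at these times. At 4 h the list medians were -0.32 in late distal and connecting tubule, -0.50 in thick ascending limb and -0.25 in proximal tubule cells. At 12 h they were -0.38, -0.47 and -0.15. The part of growth factor signalling in these medians was not tested. Cited2, a transcriptional coregulator, had 196, 130, 80.2 and 66.7 CPM, and Fbxo32, a muscle-type ubiquitin ligase, had 15.5, 6.19, 2.59 and 3.33 CPM. Pdk4, the kinase that shuts pyruvate dehydrogenase, had 46.1, 96.4, 25.5 and 10.5 CPM. The exception was Gadd45a, a growth arrest gene, with 24.6, 71.3, 60.1 and 55.0 CPM, higher at all 3 times.

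Clock genes bear on the design, since the 4 libraries were taken at different times after injection and the hour of the day is not given in the sources used here. Cry1, a repressor of the clock, had 2.59, 2.69, 19.3 and 2.86 CPM, and Nr1d1, a nuclear receptor of the clock, had 19.4, 17.0, 2.19 and 18.6 CPM. Both stood apart in the 4 h library alone, in opposite directions. Cry1 was also higher and Nr1d1 lower at 4 h in the other 3 tubule classes. The part of these differences in the other 4 h ratios was not tested. Of 15 glycolysis genes, 0 were 2-fold higher or lower at any time. Of 37 translation initiation genes, 2 were higher at 4 h and none passed 2-fold at 1 or 12 h. Both counts lie near the shares over all genes, of which 3.68% were higher and 3.28% lower at 4 h. Of 18 genes of the unfolded protein response, Atf4 and Ddit3 were higher at 1 h, with log2 ratios of 1.12 and 1.69. Over all genes 1.07% were higher at 1 h.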

How the data were processed

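The deposited matrices hold raw UMI counts per gene and barcode, 1 matrix per library, per the file headers and whole-number values. Per the submitters' processing notes the authors used Cell Ranger 3.1.0, STAR and Seurat with mm10; how barcodes were selected for deposit is not given in the sources used here. The 4 matrices were analysed as deposited, and no doublet caller was run. Instead, barcodes with over 3 Slc34a1 UMIs, or at least 3 summed marker UMIs of a principal, intercalated, endothelial, stromal, podocyte or immune type, were counted, and each count of genes was repeated without them. Counts were summed per library and cell class and expressed as CPM. A gene was tested with at least 50 UMIs over the 2 libraries and named as different at 2-fold or more. Because each group is 1 library, no p-value was computed. Intervals are exact Poisson (levels), conditional exact binomial (ratios) and Clopper-Pearson (shares) at 95%, and they cover counting error only. Shares at equal depth thin each cell to 2000 UMIs and leave out shallower cells. Sex was called per cell from Xist and Y-linked transcripts. The comparison classes were chosen by UMI limits on S100g, Slc12a1, Slc34a1 and endothelial genes under the same gene and mitochondrial limits.

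At each time, up to 10 higher and up to 10 lower genes were named by the largest ratio, with 0.5 added to each count, among genes with at least 100 UMIs whose ratio passed 2-fold the same way in cells called male and in cells called female. That rule skipped unnamed genes and those of mitochondria, ribosomal proteins, immunoglobulins, haemoglobin and the sex chromosomes (Xist, Y-linked), and all genes of the lists were counted beside it; 3 genes are counted but not reported by name here. The cells, the gene lists and the rule were chosen with earlier results of these data known. Gene positions are from GENCODE vM21 (GRCm38), and promoter sequences from RefSeq (GRCm38.p6). The steps were tested on simulated data. Python 3.11.15, numpy 2.4.6, scipy 1.17.1, pandas 2.3.3 and matplotlib 3.10.9 were used. Alternatives were a mitochondrial limit of 25%, leaving out the barcodes with other markers, male-called, female-called or Pvalb-holding cells only, a Slc12a3 minimum of 10, UMI minimums of 20 and 200, CPM over non-mitochondrial UMIs, median-of-ratios scaling, equal weight per cell or per sex call, and leaving out the 5 cells richest in each gene, which was chosen after seeing the data.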

Additional observations from a re-analysis of the deposited data

Results flagged for a closer look

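Several gene lists had medians of opposite sign in male-called and female-called distal convoluted tubule cells of the same libraries. The difference between the 2 sets was not tested, and most of these medians are close to 0. At 12 h the FGF receptor and Klotho list had a median log2 ratio of -0.20 in cells called male and 0.10 in cells called female, an order kept below. The magnesium list had -0.039 and 0.11 at 1 h and -0.29 and 0.023 at 4 h. The widest gap that held at more than 1 time was in the calcium list, with 0.039 and -0.017 at 1 h, -0.44 and 0.16 at 4 h and -0.32 and 0.19 at 12 h. The potassium and acid-base list had -0.27 and 0.057 at 12 h. The clock list had 0.019 and -0.040 at 1 h and -0.093 and 0.078 at 4 h, and glycolysis had -0.0016 and 0.15 at 12 h. The actin list had -0.21 and 0.41 at 1 h, and the Notch list had -0.47 and 0.18 at 12 h.

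Barcodes that met the marker limits but held more than 50% mitochondrial UMIs were outside every comparison above, and most genes named as higher stood above the 0 h level there too. At 1 h these barcodes held 151 CPM of Hbegf, 61.6 of Nab2, 283 of Egr1, 122 of Bhlhe40, 43.0 of Tnfrsf12a, 14.0 of Atf3, 313 of Id2, 28.0 of Ier5l and 94.3 of Nr4a1. Their 0 h levels of Hbegf and Egr1 were 1.93 and 8.70 CPM. At 4 h they held 154 CPM of Hbegf, 243 of Tnfrsf12a, 47.7 of Myof, 37.4 of Gper1, 20.6 of Fgd3, 7.74 of Cldn4, 370 of Id2 and 28.4 of Nab2. At 12 h they held 10.99 CPM of Rassf10, 29.6 of Gulo, 15.2 of Etv4, 10.99 of Dusp9, 22.8 of Gper1, 36.4 of AY036118, 59.2 of Tnfrsf12a and 16.1 of Capg. The levels of Hbegf at 1 and 4 h were lower than the 421 and 370 CPM of the cells within the limit.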

How the results depend on the processing

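No paired analysis was possible because each group has 1 library. Of the counts of genes at 2-fold under each alternative, 54 of 78 stayed within 1.5 times the value given above and 24 did not. With a minimum of 20 UMIs in place of 50 the counts were 155 higher and 405 lower at 1 h, 561 lower at 4 h, and 437 higher and 351 lower at 12 h. With 200 UMIs they were 53 higher and 25 lower at 1 h, 164 and 65 at 4 h and 83 and 74 at 12 h. A mitochondrial limit of 25% left 95, 62, 164 and 112 cells, with 54 lower genes at 1 h, 170 lower at 4 h, and 120 higher and 109 lower at 12 h. Male-called cells alone gave 92 lower at 1 h, 189 lower at 4 h and 142 higher at 12 h, and female-called cells 64, 141 and 122 lower at 1, 4 and 12 h. The lower count at 1 h was also 99 without barcodes that carried other markers, 81 in Pvalb-holding cells and 88 without the 5 cells richest in each gene. Fewer genes tested or fewer cells go with these counts, and the cause was otherwise not tested. Of 780 list medians 758 held, 21 moved and 1 reversed, the ERK feedback list at 12 h under the 25% limit, at -0.019 over 3 genes. Of 660 named ratios 519 held, 135 moved and 6 reversed. The last were Atp6v1g3 at 1 h (1.54 without barcodes that carried other markers, 0.79 without its 5 richest cells) and 4 h (1.15 and 1.48), and Cyp2a4 (0.11) and Ugt3a1 (0.24) at 1 h under the 25% limit. Scaling to non-mitochondrial UMIs shifted every 4 h ratio by -0.10, and median-of-ratios scaling gave medians over all genes of 0.04, 0.03 and -0.01 at 1, 4 and 12 h. Depth limited the lists, of which the ERK feedback list had 10 to 16 genes that could be tested, and a single library per time leaves the spread between animals unknown.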
